A study of Mus musculus with 8 samples.

Results

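The genes of sterol and fatty acid synthesis were followed in mouse small cell lung cancer (SCLC) cells with and without forced expression of Nfib, which encodes a DNA-binding factor of the nuclear factor I (NFI) family. The module held 33 genes of the 22691 in the read count table, matched by gene symbol: 18 enzymes of sterol synthesis, 9 enzymes of fatty acid synthesis, elongation and desaturation, and 6 regulators and carriers. All 33 were in the table and all 33 passed the filter on low counts. The samples were 4 Nfib libraries and 4 empty vector libraries, made from cells grown out of primary lung tumors of genotype invCAG-Mycl-Luc; Rb1-/-; Trp53-/- on a mixed FVB/n and 129/Ola background. Both arms therefore carry the Mycl transgene and lack Rb1 and Trp53. Each Nfib library shares its replicate number and its line with 1 empty vector library, and these couples are called pairs 1 to 4. Pair 1 came from line Lmyc1, pairs 2 and 3 from Lmyc3 and pair 4 from Lmyc5. The labels call pairs 1 and 2 old and pairs 3 and 4 new, terms left unexplained there. The vector's promoter and the ages of the mice were not stated. Below, cultures 1 to 4 mean only the cells of pairs 1 to 4. The labels do not say whether pairs 2 and 3, of the same line, were grown separately or are repeats. P-values of paired tests therefore measure only the spread of the within-pair change over these pairs, which may be partly technical.

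Cholesterol is built from acetyl-CoA. Condensing enzymes and the mevalonate kinases make the isoprenoid units, farnesyl diphosphate is joined head to head into squalene, and squalene is oxidised, closed into lanosterol and trimmed by a series of endoplasmic reticulum enzymes that end at cholesterol. Fatty acid synthesis draws on the same acetyl-CoA, through Acly, Acaca and Fasn, and the elongases and desaturases then shape the chain. Both branches are controlled by the sterol regulatory element binding proteins (SREBPs, encoded by Srebf1 and Srebf2), membrane-bound transcription factors that the escort protein Scap carries to the Golgi for cleavage when sterol is low, and that the Insig proteins hold back when sterol is high.

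Total counts per library were 21815264 to 29934021, and no count of a member was below 153, so no member came near the limit that a count of 0 allows (3 counts, or up to 0.138 CPM, covering counting error only). Nfib itself had 1281, 4672, 2929 and 3583 CPM (counts-per-million, with TMM-scaled library sizes) in Nfib replicates 1 to 4, against 71.9, 399, 163 and 487 CPM in empty vector replicates 1 to 4. Mycl, the oncogene that both arms carry as a transgene, had 179, 1126, 256 and 165 CPM in Nfib replicates 1 to 4, against 142, 462, 156 and 118 CPM in empty vector replicates. It was higher with Nfib in all 4 pairs and rose in the paired test described below (0.70 ± 0.16, SE, DESeq2 adjusted p of 0.00148, paired edgeR 0.188), with any 1 pair removed as well. The 10 neuroendocrine markers of SCLC (Insm1, Chga, Syp and others) summed to 3396, 2198, 4789.9 and 3863 CPM in Nfib replicates 1 to 4, against 3206, 3726, 5143 and 4273 CPM in empty vector replicates, lower with Nfib in pairs 2, 3 and 4, with no marker at 0 in any library. Log2 fold changes were negative for 8 of them, down to -0.87, and paired edgeR had 3 lower and 0 higher at an unadjusted p under 0.05. The part of Mycl and of these markers in the members' changes was not tested. Of the 10, only Nkx2-1, a lung lineage factor, passed the paired DESeq2 test, at -0.39 ± 0.11 (SE, DESeq2 adjusted p of 0.0122). Markers of other cells were low in both arms: the 5 leukocyte markers of the table summed to 1.81 to 2.49 CPM with Nfib and 1.56 to 2.48 CPM with empty vector, the 6 fibroblast and endothelial markers to 0.561 to 12.7 CPM with Nfib and 0.296 to 10.8 CPM with empty vector, the 6 alveolar and airway markers to 7.23 to 19.2 CPM with Nfib and 3.76 to 15.1 CPM with empty vector, and the 3 adipocyte markers to at most 0.0779 CPM with Nfib and 0.0678 CPM with empty vector. Among these, Ptprc, Itgam, Col1a1, Col1a2, Dcn, Pecam1, Cdh5, Sftpc, Sftpb, Scgb1a1, Adipoq, Cidec and Lep were at 0 in at least 1 library. None of the 1 leukocyte, 1 fibroblast and endothelial and 4 alveolar and airway markers with enough counts to test was called, nor could any adipocyte marker be tested. All 4 alveolar and airway markers tested had a positive log2 fold change (median 0.86), and 2 were higher with Nfib in all 4 pairs. Paired edgeR had 2 of them higher and 0 lower at an unadjusted p under 0.05, where 7.24% of all genes were higher. The line names did not follow the likeness of the cultures: over the 13380 genes tested, log2 CPM of empty vector libraries correlated at 0.887 between cultures 1 and 3 and at 0.877 between cultures 2 and 4, but at 0.811 between the 2 Lmyc3 cultures 2 and 3.

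With Nfib forced up, 30 of the 33 members had a negative log2 fold change, as did 51.5% of all genes tested. In the paired DESeq2 test 6 members fell and 0 rose, where 2.2% of all genes fell and 1.86% rose (4.06% in all): the sterol enzymes Sqle, Tm7sf2, Sc5d and Dhcr7, the stearoyl-CoA desaturase Scd1, and the SREBP escort Scap. All 18 sterol enzymes had a negative log2 fold change, between -0.52 for Tm7sf2 and -0.05 for Hsd17b7, with a median of -0.22. The fatty acid enzymes divided, with a median of -0.09, Scd1 at one end and Fasn, at 0.19 ± 0.10 (SE, not called), at the other. The regulators and carrier had a median of -0.22, and the median over all 13380 genes tested was -0.0062.

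Rose and fell mean here a Benjamini-Hochberg adjusted p under 0.05, over all genes tested, in DESeq2's Wald test with the pair as a block. That test called 294 of the 13380 genes lower and 249 higher, or 201 lower and 324 higher with scaling by total counts. It was the most permissive of the tests run: edgeR's quasi-likelihood test called 0 genes, members included, whether the pair was a block or not. Limma voom, also paired, called 0.0224% of all genes and 0 members. The smallest adjusted p of a member in the paired edgeR test was 0.14, for Dhcr7. At an unadjusted p under 0.05 that test had 10 members lower and 0 higher, where 7.8% of all genes were lower and 7.24% higher. EdgeR without the block had 0 members at that level and 0.62% of all genes. Paired limma voom also had 10 members lower at an unadjusted p under 0.05, against 8.73% of all genes. The libraries of the arms overlapped for every member, so the changes show within pairs only. For comparison, 0.224% of all genes had every Nfib library below every empty vector library. Within pairs, 9 members were lower with Nfib in all 4 pairs and 0 higher in all 4, where 12.9% and 12.8% of all genes were. The number of members lower in the Nfib library was 32 in pair 1, 26 in pair 2, 16 in pair 3 and 27 in pair 4, out of 33.

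**Figure D1:**
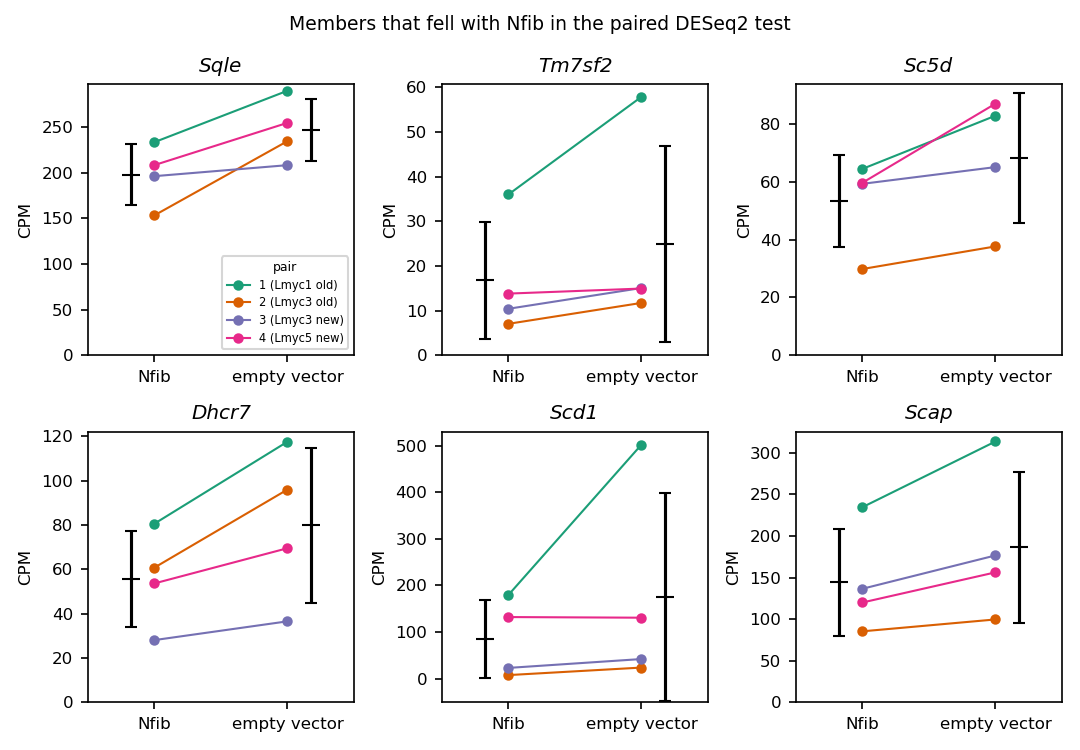
CPM of the 6 members that fell in the paired DESeq2 test, with Nfib libraries at left and empty vector libraries at right. Lines join the libraries of a pair, and black marks give the mean ± SD of 4 libraries. Sqle, Tm7sf2, Sc5d, Dhcr7 and Scap are lower with Nfib in all 4 pairs, while Scd1 is flat in pair 4 (132 CPM with Nfib and 131 CPM with empty vector).

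Among the sterol enzymes only the final reductase fell without dependence on a single pair. Dhcr7 (ENSMUSG00000058454, chromosome 7, 143823145 to 143848410, GRCm38, as all coordinates here), which reduces the last double bond on one route to cholesterol, had 80.6, 60.8, 28.1 and 53.7 CPM in Nfib replicates 1 to 4, against 118, 96.0, 36.6 and 69.6 CPM in empty vector replicates 1 to 4. The Nfib library was the lower one in every pair, with log2 ratios of -0.54, -0.66, -0.38 and -0.37 in pairs 1 to 4, although the arms overlapped, with culture 3 low in both. The paired change was -0.50 ± 0.09 (SE, DESeq2 adjusted p of 3.08e-05), and with any 1 pair removed the call held, at adjusted p of 0.00393 to 0.0264.

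Sqle (ENSMUSG00000022351, chromosome 15, 59315077 to 59331192), the squalene epoxidase that commits squalene to sterols, had 234, 153, 196 and 209 CPM in Nfib replicates 1 to 4, against 290.2, 235, 209 and 255 CPM in empty vector replicates. Its log2 ratios were -0.31, -0.61, -0.09 and -0.29, smallest in pair 3. The paired change was -0.33 ± 0.11 (SE, DESeq2 adjusted p of 0.0418, paired edgeR 0.23), and the call held without replicate 3 alone. Without replicate 1 its adjusted p was 0.227, without replicate 2 0.153 and without replicate 4 0.281.

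Sc5d (ENSMUSG00000032018, chromosome 9, 42254177 to 42264300), the desaturase that acts just before Dhcr7, had 64.6, 29.9, 59.4 and 59.8 CPM in Nfib replicates 1 to 4, against 83.0, 37.7, 65.2 and 87.2 CPM in empty vector replicates. It was lower with Nfib in all 4 pairs and most in pair 4, where the log2 ratio was -0.54. The paired change of -0.35 ± 0.10 (SE, DESeq2 adjusted p of 0.0252, paired edgeR 0.19) was lost with any 1 pair removed, at adjusted p of 0.0641 to 0.458.

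Tm7sf2 (ENSMUSG00000024799, chromosome 19, 6062821 to 6068373), a sterol reductase of the step after lanosterol demethylation, was the least abundant member, with 36.0, 7.02, 10.4 and 13.8 CPM in Nfib replicates 1 to 4, against 57.9, 11.7, 15.0 and 14.9 CPM in empty vector replicates. Culture 1 held several times the level of the others in both arms. Its paired change was -0.52 ± 0.17 (SE, DESeq2 adjusted p of 0.0432, paired edgeR 0.209). The call was lost with the Lmyc3 pairs summed per arm. It held without replicate 4 but not without replicate 1, 2 or 3 (adjusted p of 0.563, 0.264 and 0.37). Exons of Vps51 on the same strand cover 12.1% of its exon length, and the counting method does not show to which gene shared reads went. Scaling by total counts left Dhcr7 called and ended the calls of Sqle, Sc5d and Tm7sf2 (adjusted p of 0.0957, 0.051 and 0.0751).

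The other 14 sterol enzymes did not pass, and pair 3 set most of them apart. In pairs 1 and 2 all 18 sterol enzymes were lower in the Nfib library, and in pair 4 all but Mvk, whose ratio there was 0.0049. In pair 3, 12 of the 18 were higher in the Nfib library. Of all genes, 50.1%, 49.5%, 50% and 48.9% were higher in the Nfib library in pairs 1 to 4. The pattern of lower in pairs 1, 2 and 4 and higher in pair 3 was found in 11 sterol enzymes, and in 4.46% of all genes tested. The median log2 ratio of the sterol enzymes was -0.38, -0.48, 0.16 and -0.13 in pairs 1 to 4, and that of all genes tested 0.00024, -0.0029, 0 and -0.0046. The summed level of the 18 was 2013, 1460.0, 1640.5 and 1996 CPM in Nfib replicates 1 to 4, against 2642, 2022, 1463 and 2239 CPM in empty vector replicates. The enzymes share 1 pathway and their signs are not independent, and the pattern was picked out after the values were seen.

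**Figure D2:**
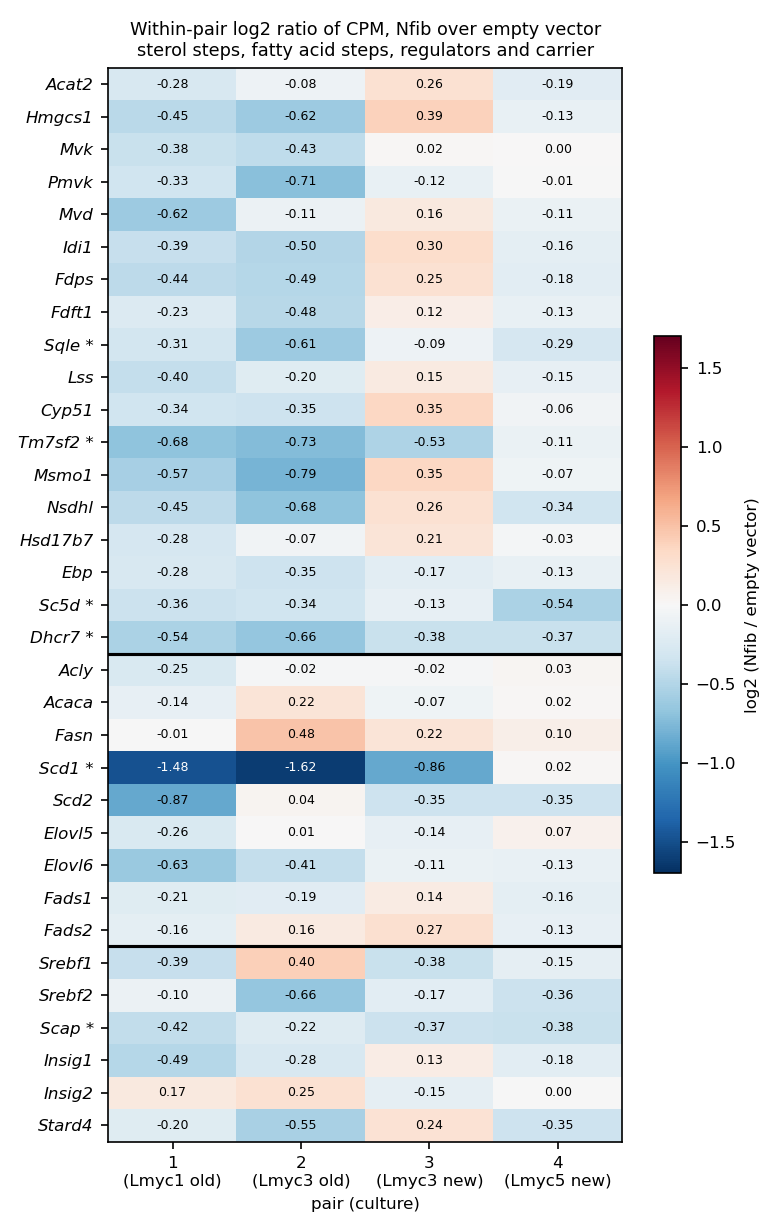
Within-pair log2 ratio of CPM, Nfib over empty vector, for the 33 members (rows) in the 4 pairs (columns), with blue for lower and red for higher with Nfib. Stars mark the 6 members called by the paired DESeq2 test, and the black lines separate sterol steps, fatty acid steps, and regulators and carrier. The column of pair 3 holds 12 red cells among 18 sterol enzymes, and the first 2 columns hold none.

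Hmgcs1, which makes the HMG-CoA of the mevalonate pathway, had the largest ratio in pair 3. It had 338, 241, 311 and 383 CPM in Nfib replicates 1 to 4, against 464, 371, 237 and 418 CPM in empty vector replicates, with log2 ratios of -0.45, -0.62, 0.39 and -0.13. The empty vector library of culture 3 was the lowest of the 4 in its arm. Its paired change of -0.21 ± 0.17 (SE, DESeq2 adjusted p of 0.675) had an adjusted p of 0.0855 without replicate 3. Idi1, the isomerase that makes the second isoprenoid unit, had 197, 145, 164 and 154 CPM in Nfib replicates 1 to 4, against 258, 204, 133 and 172 CPM in empty vector replicates. Cyp51, which removes the first methyl group of lanosterol, had 193, 129, 124 and 173 CPM in Nfib replicates 1 to 4, against 245, 165, 97.0 and 181 CPM in empty vector replicates. In both, the Nfib library was the higher one in pair 3 only, by log2 ratios of 0.30 and 0.35.

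Msmo1, which starts the removal of the other methyl groups, had 60.9, 55.0, 125 and 135 CPM in Nfib replicates 1 to 4, against 90.3, 94.98, 98.4 and 142 CPM in empty vector replicates. Its log2 ratios ran from -0.79 in pair 2 to 0.35 in pair 3, both cultures of Lmyc3. Nsdhl, which acts next, had 55.2, 24.8, 43.7 and 54.6 CPM in Nfib replicates 1 to 4, against 75.4, 39.8, 36.6 and 69.0 CPM in empty vector replicates. Nsdhl did not pass over the 4 pairs (-0.31 ± 0.18, SE, DESeq2 adjusted p of 0.441) but did without replicate 3 (adjusted p of 0.0485). The farnesyl diphosphate synthase Fdps and the lanosterol synthase Lss had log2 ratios in pair 3 of 0.25 and 0.15, and of -0.44 and -0.40 in pair 1. Also higher in pair 3 were the thiolase Acat2, the mevalonate kinase Mvk, the decarboxylase Mvd, the squalene synthase Fdft1 and Hsd17b7, which works beside Nsdhl, with log2 ratios of 0.26, 0.02, 0.16, 0.12 and 0.21. The other enzymes without a call, the phosphomevalonate kinase Pmvk and the sterol isomerase Ebp, were lower in all 4 pairs, at -0.30 ± 0.14 and -0.24 ± 0.10 over the pairs (SE, DESeq2 adjusted p of 0.302 and 0.214).

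The cultures also differed at the start. In the empty vector arm, culture 3 had the lowest CPM of the 4 for 11 of the 18 sterol enzymes and 8 of the 9 fatty acid enzymes, where 25.8% of all genes tested had their lowest value there. In the Nfib arm culture 2 was the lowest for 12 sterol enzymes and culture 3 for 6, while culture 3 was again the lowest for 8 fatty acid enzymes. The shares of all genes with their lowest Nfib value in these cultures were not counted. The spread between cultures, as the ratio of the highest to the lowest CPM, was narrower in Nfib than in empty vector libraries for 13 of the 18 sterol enzymes, and for 52% of all genes. For Idi1 this ratio was 1.36 in Nfib and 1.93 in empty vector libraries. A low empty vector library enters both the baseline and the ratio of its pair, so the low baseline and the positive ratios of pair 3 are not separate observations. Likewise, the low Nfib values of culture 2 and the negative ratios of pair 2 are not separate. For 29 of the 33 members the spread between the empty vector cultures exceeded the largest within-pair change. The share of all genes for which this held was not counted, so it is not read as a trait of the module.

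**Figure D3:**
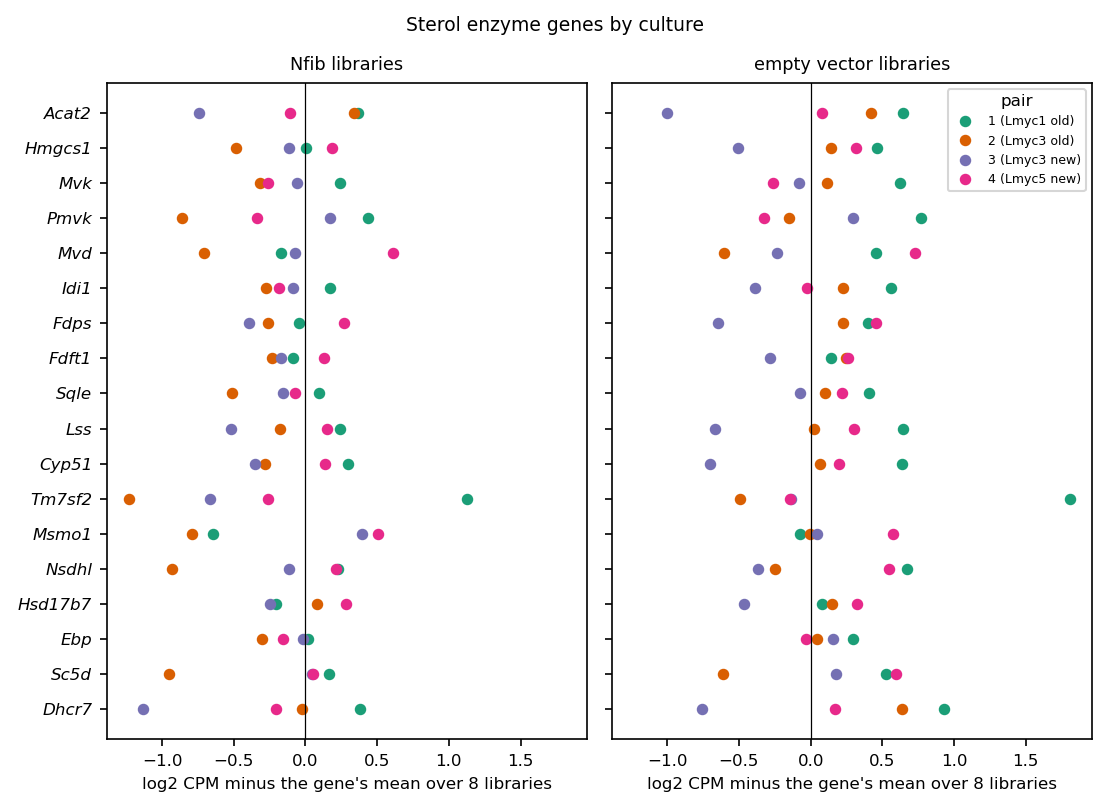
Log2 CPM of the 18 sterol enzymes, less each gene's mean over 8 libraries, for Nfib libraries at left and empty vector libraries at right. Colors mark the 4 cultures. The points of culture 3 lie lowest for 11 genes in the empty vector panel, and those of culture 2 lie lowest for 12 genes in the Nfib panel.

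Whether the effect of Nfib differed between old and new pairs was tested as an interaction in DESeq2 with the replicate block. No member passed (smallest DESeq2 adjusted p of 0.507), and 0.0523% of all genes did. EdgeR with the same model also called 0 members. The term, new minus old, was positive for 28 of the 33 members, with a median of 0.27 against 0.0032 over all genes. At an unadjusted p under 0.05, 7 members were positive and 0 negative in DESeq2, where 1.02% of all genes were positive, and 9 in edgeR, where 1.67% were. The 7 were Hmgcs1, Idi1, Fdps, Cyp51, Msmo1, Scd1 and Elovl6. For pairs 1 and 4 the line and the words old and new cannot be told apart.

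Among the 9 fatty acid enzymes 1 fell and 0 rose. Scd1 (ENSMUSG00000037071, chromosome 19, 44394451 to 44407709), which puts the double bond into stearate and palmitate, had 179.8, 7.71, 23.1 and 132 CPM in Nfib replicates 1 to 4, against 502, 23.8, 42.1 and 131 CPM in empty vector replicates. Nfib libraries were lower in pairs 1, 2 and 3, with log2 ratios of -1.48, -1.62 and -0.86, and level in pair 4, at 0.02. The paired change was -0.997 ± 0.26 (SE, DESeq2 adjusted p of 0.00647, paired edgeR 0.247). Without replicate 4 the log2 fold change was -1.32 with an adjusted p of 7.62e-10, and without replicate 1, 2 or 3 it did not pass (adjusted p of 0.142, 0.526 and 0.498). The call was also lost with the Lmyc3 pairs summed per arm. Scd1 was the member that differed most between cultures, by 23.3 times between the highest and lowest Nfib library and 21.1 times between those with empty vector.

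Its close relative Scd2, the stearoyl-CoA desaturase that predominates in brain, did not pass over the 4 pairs. It had 649, 938, 312 and 1191 CPM in Nfib replicates 1 to 4, against 1187, 912, 397 and 1518 CPM in empty vector replicates. The Nfib library was lower in pairs 1, 3 and 4 and level in pair 2, the pair in which Scd1 was lowest relative to empty vector. The paired change was -0.39 ± 0.15 (SE, DESeq2 adjusted p of 0.122), which passed without replicate 2 (adjusted p of 0.00241). Scd1 and Scd2 have similar sequences, and reads that match both may have been counted for either.

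Fasn, the multienzyme that builds palmitate, was the only member with a higher Nfib library in 3 pairs. It had 685, 1061, 492 and 727 CPM in Nfib replicates 1 to 4, against 687, 759, 421 and 678 CPM in empty vector replicates, a paired change of 0.19 ± 0.10 (SE, DESeq2 adjusted p of 0.369). Pair 2 had the largest log2 ratio, 0.48. Acly, which makes the cytosolic acetyl-CoA for this synthesis, had a paired change of -0.07 ± 0.08, and Acaca, which makes malonyl-CoA, one of -0.0018 ± 0.09 whose sign depended on the test. Elovl6, which lengthens palmitate to stearate, had 191, 161, 76.6 and 119 CPM in Nfib replicates 1 to 4, against 296, 213, 82.6 and 130.0 CPM in empty vector replicates. It was lower with Nfib in all 4 pairs, at -0.33 ± 0.12 (SE, DESeq2 adjusted p of 0.0957). Elovl5, an elongase of polyunsaturated chains, and the front-end desaturases Fads1 and Fads2 had paired changes of -0.09 ± 0.09, -0.11 ± 0.09 and 0.02 ± 0.11 (SE). None of them passed, and the sign of Fads2 depended on the test. The summed level of the 9 was 2872, 3852, 1674 and 3465 CPM in Nfib replicates 1 to 4, against 4021, 3568, 1709 and 3805 CPM in empty vector replicates, so it was higher with Nfib in pair 2 and lower in the other pairs.

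Of the 6 regulators and carriers, Scap fell and 0 rose, and its paired change had the smallest SE of the module. Scap (ENSMUSG00000032485, chromosome 9, 110333288 to 110384946) had 235, 85.4, 137 and 120.1 CPM in Nfib replicates 1 to 4, against 314, 99.7, 177 and 156 CPM in empty vector replicates. The Nfib library was lower in every pair, with log2 ratios of -0.42, -0.22, -0.37 and -0.38, pair 3 included. The paired change was -0.36 ± 0.07 (SE, DESeq2 adjusted p of 3.54e-05, paired edgeR 0.156), and the call held with any 1 pair removed. Scap and Dhcr7 were the 2 members of which this was true, and 0.329% of all genes fell and held in this way. For Scap the margin was narrow in most of these fits. Its DESeq2 adjusted p was 0.0434, 0.0477 and 0.0439 without replicates 1, 3 and 4, and 2.87e-05 without replicate 2. An unclassified annotated transcript on the opposite strand, 5830462I19Rik, shares 13.2% of Scap's exon length.

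Srebf2, the SREBP that mainly drives sterol genes, had 370.1, 254, 312 and 375 CPM in Nfib replicates 1 to 4, against 397, 403, 352 and 482 CPM in empty vector replicates. It was lower with Nfib in all 4 pairs and most in pair 2, at -0.66. The paired change of -0.33 ± 0.11 (SE, DESeq2 adjusted p of 0.0683) missed the threshold, but passed with the Lmyc3 pairs summed per arm. Srebf1, whose products mainly drive fatty acid genes, had 62.8, 122, 65.0 and 169 CPM in Nfib replicates 1 to 4, against 82.6, 92.1, 84.5 and 188 CPM in empty vector replicates. It was lower with Nfib in pairs 1, 3 and 4 and higher in pair 2, for a paired change of -0.14 ± 0.16 (SE, DESeq2 adjusted p of 0.82). Pair 2 held the only positive Srebf1 ratio and the largest Fasn ratio, and the most negative ratio of Srebf2.

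Insig1, itself a target of the SREBPs, had 160.2, 108, 86.4 and 122 CPM in Nfib replicates 1 to 4, against 225, 130.4, 78.9 and 138 CPM in empty vector replicates, and, like 11 of the sterol enzymes, was higher with Nfib in pair 3 only. Insig2, whose protein also retains Scap, varied least between the Nfib libraries relative to its mean, at 37.4 ± 2.24 CPM with Nfib and 36.0 ± 5.74 CPM with empty vector (SD, n = 4 each). Stard4, a cytosolic carrier of cholesterol, had 156, 100.4, 58.0 and 189 CPM in Nfib replicates 1 to 4, against 179.5, 147, 49.0 and 241 CPM in empty vector replicates, again higher with Nfib in pair 3 only. None of the 3 passed (-0.21 ± 0.12, 0.06 ± 0.12 and -0.23 ± 0.14 over the pairs, SE), although Stard4 did with the Lmyc3 pairs summed per arm.

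**Figure D4:**
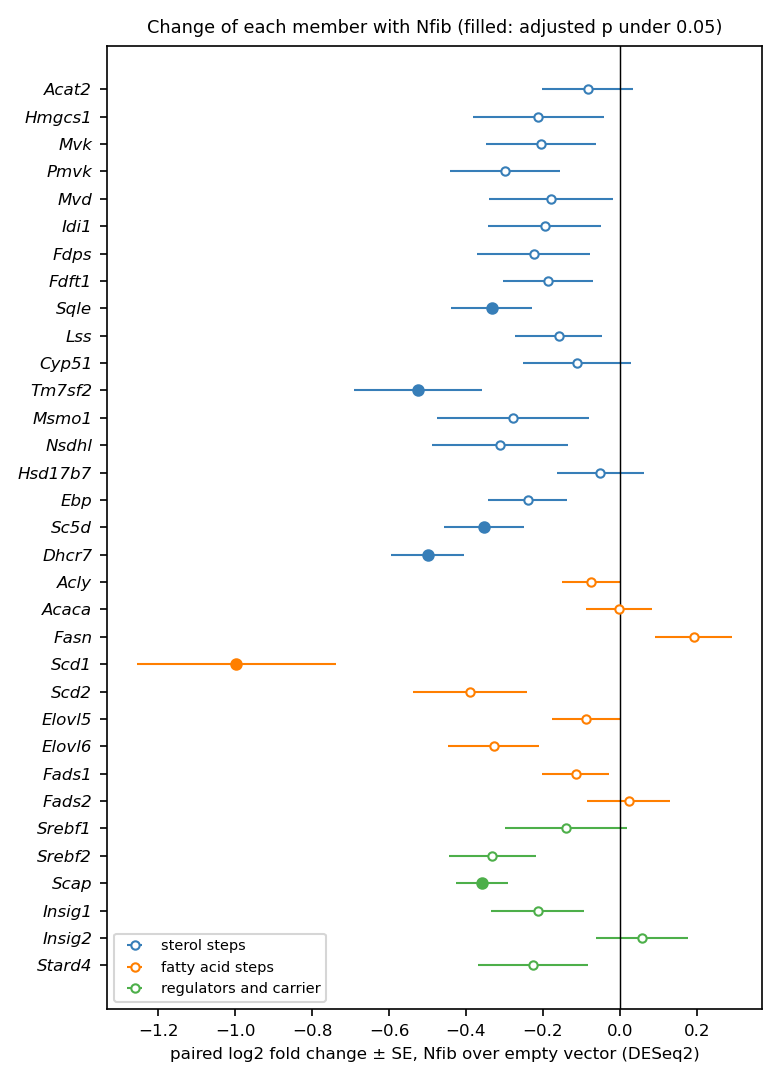
Paired log2 fold change ± SE of the 33 members, Nfib over empty vector, from DESeq2 with the replicate block. Blue marks sterol steps, orange fatty acid steps and green the regulators and carrier, and filled points passed at an adjusted p under 0.05. All 18 sterol points lie left of 0, and Scd1, at -0.997, lies farthest left with the widest error.

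Levels between genes were compared per kilobase of exon (the union of annotated exons). Scd2 had the highest mean, at 141 ± 69.2 CPM per kilobase with Nfib and 184 ± 86.8 with empty vector (SD, n = 4 each). Within the SD it overlapped Acly and Hmgcs1 in both arms. Acly (77.4 ± 33.9 with Nfib and 81.0 ± 34.5 with empty vector), Hmgcs1 (69.3 ± 13.0 with Nfib and 81.1 ± 21.3 with empty vector), Fasn (67.7 ± 21.6 with Nfib and 58.1 ± 13.5 with empty vector) and Fads1 (59.2 ± 24.7 with Nfib and 65.5 ± 30.2 with empty vector) came next in CPM per kilobase and overlapped each other within their SD. Among sterol enzymes, Hmgcs1 and Idi1 (47.1 ± 6.50 with Nfib and 54.7 ± 15.1 with empty vector) were above the late enzymes Dhcr7 (9.59 ± 3.73 with Nfib and 13.7 ± 6.01 with empty vector), Sc5d (11.0 ± 3.26 with Nfib and 14.0 ± 4.63 with empty vector) and Tm7sf2 (3.82 ± 2.97 with Nfib and 5.65 ± 5.01 with empty vector). The order rests on annotated exon lengths. Exons of Ctsb cover 18.3% of the exon length of Fdft1 from the opposite strand, and those of Gm43738 cover 26.7% of Fdps on the same strand, so levels of these are less certain.

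**Figure D5:**
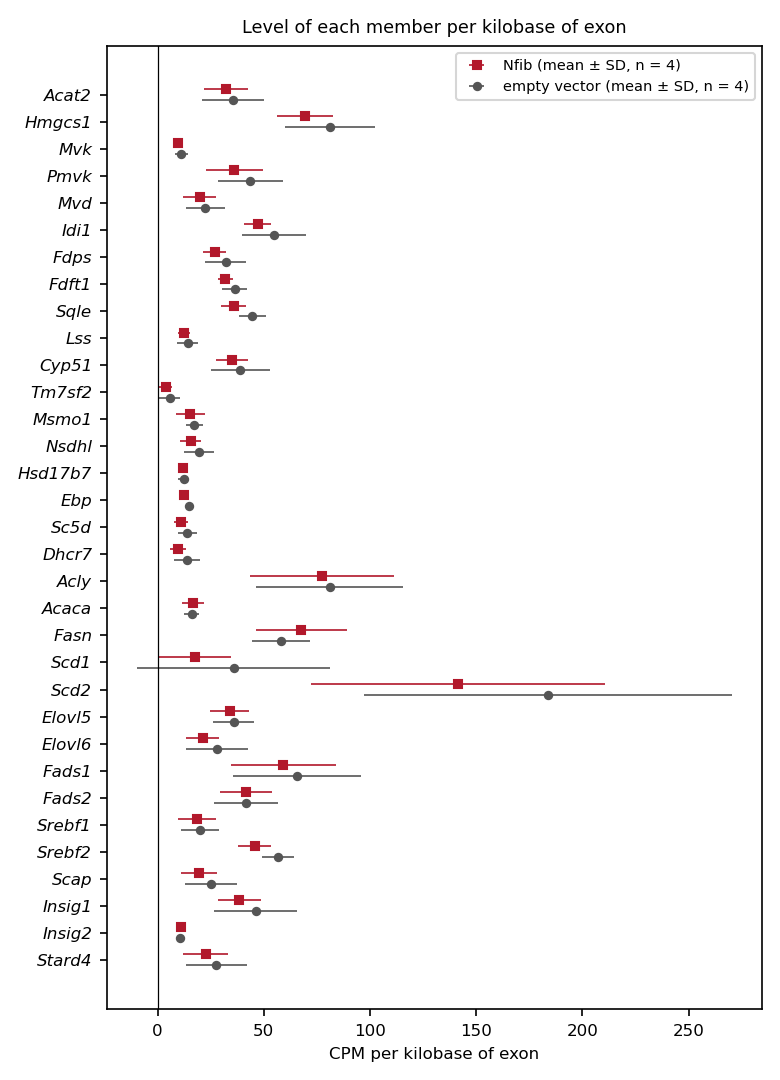
Mean level ± SD of each member in CPM per kilobase of exon, with Nfib libraries as red squares above empty vector libraries as grey circles (n = 4 each). Scd2 lies farthest right, at 141 with Nfib and 184 with empty vector, and Tm7sf2 farthest left. The empty vector bar of Scd1 reaches below 0 because its SD exceeds its mean.

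The promoters of 26 members were in the RefSeq table used here (GRCm38.p6, 250 bases before to 50 after the start). Fdps, Fdft1, Sqle, Scd1, Scd2, Fads1 and Stard4 had no entry. Where a gene had several starts, the one nearest to the gene's start in the count table was taken. Both strands were searched for the sterol regulatory element TCACNCCAC, the NF-Y core CCAAT, the Sp1 core GGGCGG, the E-box CACGTG and the full NFI site, TTGGC and GCCAA with 5 bases of any kind between them. The NF-Y core read on the other strand, ATTGG, shares letters with the first part of the NFI site. The promoters below are those of Hmgcs1, an early enzyme of the pathway, and of the called members Dhcr7, Tm7sf2, Sc5d and Scap. Of the members searched, only Hmgcs1 had a match to the sterol regulatory element, and the others can be compared with it. Capitals mark matches to the sterol regulatory element, the NF-Y core and the Sp1 core, and each sequence runs 5′ to 3′ on the gene's strand, ending 50 bases into the transcript. They are credited to RefSeq with that build.
Hmgcs1 (chr13:119690101-119690400, plus strand): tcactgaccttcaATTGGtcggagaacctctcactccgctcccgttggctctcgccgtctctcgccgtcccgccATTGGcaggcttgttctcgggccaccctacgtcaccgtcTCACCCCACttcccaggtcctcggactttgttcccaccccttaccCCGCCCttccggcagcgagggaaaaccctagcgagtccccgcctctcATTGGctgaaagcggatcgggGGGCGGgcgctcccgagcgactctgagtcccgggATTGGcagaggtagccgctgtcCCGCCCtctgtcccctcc
Dhcr7 (chr7:143822917-143823216, plus strand): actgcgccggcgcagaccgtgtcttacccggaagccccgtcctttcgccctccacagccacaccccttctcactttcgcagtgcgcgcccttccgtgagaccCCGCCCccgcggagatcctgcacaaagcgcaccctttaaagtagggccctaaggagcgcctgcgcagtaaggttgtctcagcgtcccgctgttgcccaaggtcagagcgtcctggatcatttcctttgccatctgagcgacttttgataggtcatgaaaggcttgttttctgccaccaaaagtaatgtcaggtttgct
Tm7sf2 (chr19:6067801-6068100, minus strand): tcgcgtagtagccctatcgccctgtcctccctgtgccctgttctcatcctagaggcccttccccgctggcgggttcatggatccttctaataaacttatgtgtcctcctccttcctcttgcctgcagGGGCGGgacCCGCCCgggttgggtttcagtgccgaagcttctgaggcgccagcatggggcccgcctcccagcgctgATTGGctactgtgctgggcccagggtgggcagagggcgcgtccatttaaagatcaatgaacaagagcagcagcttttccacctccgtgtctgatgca
Sc5d (chr9:42264251-42264550, minus strand): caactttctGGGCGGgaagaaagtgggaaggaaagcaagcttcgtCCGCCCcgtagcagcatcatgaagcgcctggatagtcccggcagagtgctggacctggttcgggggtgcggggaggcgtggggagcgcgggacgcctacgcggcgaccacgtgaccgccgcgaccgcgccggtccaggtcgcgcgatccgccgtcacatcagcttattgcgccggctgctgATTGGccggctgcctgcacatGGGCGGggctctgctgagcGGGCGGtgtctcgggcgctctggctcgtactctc
Scap (chr9:110333038-110333337, plus strand): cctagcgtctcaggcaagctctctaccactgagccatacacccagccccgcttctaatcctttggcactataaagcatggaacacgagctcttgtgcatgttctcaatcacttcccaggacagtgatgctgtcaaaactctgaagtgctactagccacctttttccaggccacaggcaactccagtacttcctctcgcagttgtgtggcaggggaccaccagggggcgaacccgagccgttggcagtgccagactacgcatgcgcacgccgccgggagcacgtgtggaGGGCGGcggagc

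In Hmgcs1 the sterol regulatory element, TCACCCCAC, lay at -137 to -129 on the plus strand, counted from the start, with 4 NF-Y cores and 3 Sp1 cores around it. Dhcr7 held a single Sp1 core and no NF-Y core, Scap a single Sp1 core after the start, Tm7sf2 1 NF-Y core and 2 Sp1 cores, and Sc5d 1 NF-Y core and 4 Sp1 cores. The Tm7sf2 window lies 523 bases from the start in the count table. That of Acaca, which held none of the motifs, lies 65766 bases from it, and for the other 24 members the distance was at most 453 bases. Over all 26 members, 19 (73.1%) had an NF-Y core and 19 a Sp1 core, against 37.4% and 35.6% of the 32817 promoters of the table. Among the 15 sterol enzymes with an entry, 12 had an NF-Y core and 14 a Sp1 core. An E-box was found in 5 members (19.2%), namely Hsd17b7, Sc5d, Elovl5, Scap and Insig1, against 7.15% of all promoters. The sterol regulatory element occurred in 1.24% of all promoters. No member held the full NFI site, which 0.0366% of all promoters held. A match is a string of letters in this window, and binding was not measured.

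Other genes of the pathway, from further lists of related genes, were also counted. Of 11 tested genes of SREBP cleavage and turnover, such as the proteases Mbtps1 and Mbtps2, 0 passed (median log2 fold change -0.07). Among 12 genes of the prenyl and dolichol branches, which draw on farnesyl diphosphate, 0 passed (median -0.02). Of 15 genes of sterol uptake, efflux and esterification 0 passed (median -0.10), and of 9 other elongation and desaturation genes 0 (median 0.02). At an unadjusted p under 0.05 the paired edgeR test had 2 and 0 genes lower and 0 and 1 higher in the first 2 of these lists, and 3 and 0 lower and 0 and 1 higher in the last 2. In that test 7.8% of all genes were lower and 7.24% higher at this level.

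In the list of fatty acid supply and activation, 2 of 16 tested genes fell and 0 rose, where 2.2% of all genes fell and 1.86% rose. Acsl3, an acyl-CoA synthetase of the endoplasmic reticulum and lipid droplets, had 74.1, 179.8, 52.4 and 118 CPM in Nfib replicates 1 to 4, against 119, 265, 69.4 and 147 CPM in empty vector replicates. It was lower with Nfib in all 4 pairs, with a paired change of -0.50 ± 0.10 (SE, DESeq2 adjusted p of 3.86e-05, paired edgeR 0.156). The call held with any 1 pair removed, and 0.329% of all genes fell and held in these 4 fits. Acsl4, which prefers arachidonate, changed by -0.35 ± 0.10 (SE, DESeq2 adjusted p of 0.0173) and held in 1 of these 4 fits.

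Mitochondrially encoded genes together took 3.46, 3.48, 3.63 and 2.20% of counts in Nfib replicates 1 to 4, against 3.86, 4.81, 3.84 and 2.55% in empty vector replicates. This share was lower with Nfib in every pair. Of the 11 tested, 4 fell in the paired DESeq2 test (mt-Co1, mt-Nd4, mt-Nd5 and mt-Cytb), 0 rose and all 11 had a negative log2 fold change. Over all genes tested, 2.2% fell, 1.86% rose and 51.5% had a negative log2 fold change. Of the 11 mitochondrially encoded genes, 8 were lower in all 4 pairs, where 12.9% of all genes were. The 33 members together took 0.597, 0.591, 0.412 and 0.660% of counts in Nfib replicates 1 to 4, against 0.779, 0.630, 0.401 and 0.723% in empty vector replicates, lower in pairs 1, 2 and 4 and not in pair 3. Alveolar and airway markers summed to 7.23, 8.03, 19.2 and 7.67 CPM in Nfib replicates 1 to 4, against 3.76, 15.1, 10.5 and 5.09 CPM in empty vector replicates. Their part in the result was not tested. In such bulk libraries, fewer cells of a type and less RNA per cell cannot be told apart.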

How the data were processed

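The authors deposited whole-number read counts per Ensembl gene for 8 libraries, not normalized, with symbols and GRCm38 coordinates. The libraries followed the Illumina TruSeq RNA protocol, per the labels' protocols. Per the submitters' processing notes, the tools were TopHat2 2.1, Bowtie 1.0.0, SAMtools 0.1.19 and DESeq2 and the build was GRCm38 (mm10). Neither the counting program nor its strand setting is given in the sources used here, so overlapping and antisense genes cannot be told apart, nor can introduced and endogenous Nfib. The titles use Tumor for the Nfib arm, and groups follow the source field.

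Genes were kept by edgeR's expression filter (13380 of 22691). The test named first in the design was that of edgeR 4.0.16 in R 4.3.3 (quasi-likelihood, original form) without a block. Members are described with DESeq2 1.42.0's Wald test with the replicate number as a block, Benjamini-Hochberg adjustment over all genes at 0.05 and unshrunken fold changes, because the edgeR test was known to call no gene. The edgeR test with the block and limma 3.58.1 (voom) stand beside it. Both libraries of a number have 1 line in the labels, so the numbers pair them. Deviations from the group mean correlated at 0.908, 0.884, 0.935 and 0.929 within pairs 1 to 4, and otherwise at up to 0.0647. CPM use TMM factors, and log2 ratios a prior count of 2. Exon lengths are from GENCODE M21 of the same build. The tests were also run on simulated data, with outcomes not reported here, so that run does not decide between them. Alternatives were other tests, scalings, filters, thresholds and blocks, the Lmyc3 pairs summed, and each replicate removed.

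The members and lists were chosen with earlier results of these data known. Every member is named. Genes that passed the paired DESeq2 test are described for some of the other lipid lists. Some genes of the pathway and some results of the lists are not reported here.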

Additional observations from a re-analysis of the deposited data

Results flagged for a closer look

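Of 99 sets of 4 values examined (the CPM of each member in each arm, and its 4 within-pair ratios), 5 held a value far from the other 3. Chance alone gives about 1 in 20 for independent sets. These sets are not independent, since the ratios are built from the same CPM, so that rate is only a rough guide. Tm7sf2 had 57.9 CPM in empty vector replicate 1, against 11.7 to 15.0 CPM in the other empty vector libraries. Msmo1 had 142 CPM in empty vector replicate 4, against 90.3 to 98.4 CPM in the other 3. Srebf1 had 188 CPM in empty vector replicate 4, against 82.6 to 92.1 CPM in the others. Sc5d had 29.9 CPM in Nfib replicate 2, against 59.4 to 64.6 CPM in the other Nfib libraries, and it was also lowest in empty vector replicate 2, at 37.7 CPM. The Fads1 log2 ratio was 0.14 in pair 3 and -0.21 to -0.16 in the other pairs. In the interaction test of old against new pairs no member passed adjustment (smallest DESeq2 adjusted p of 0.507), which does not show that the effects were alike.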

How the results depend on the processing

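The count of 6 members lower with Nfib, by DESeq2 with the replicate block, was 0 for edgeR without the block, and 0 for edgeR with the replicate block in its original and in its bias-adjusted form, for limma voom with the replicate block, and for DESeq2 with no replicate block, with the line as a block or with old or new as a covariate. It was 3 with total-count scaling, 5 with TMM (Sqle lost), 8 at an adjusted p of 0.1, and 2 to 4 in the fits that left out 1 pair, with 2 without replicate 1 and 3 without replicate 2. It was 6 with other filters, and 6 with the Lmyc3 pairs summed per arm, where Tm7sf2 (-0.49) and Scd1 (-0.87) lost their calls and Srebf2 (-0.29) and Stard4 (-0.27) gained one. No member was called higher under any setting. Over all genes, 294 lower and 249 higher became 0 and 0 (edgeR with the replicate block), 14 and 30 (its bias-adjusted form), 0 and 3 (limma voom with the replicate block, and DESeq2 with no replicate block), 12 and 23 (line as block), 4 and 7 (old or new), 452 lower at an adjusted p of 0.1, and 89 to 204 lower with 108 to 178 higher without 1 replicate (without replicate 1, 176 lower and 175 higher; without replicate 3, 89 and 145; without replicate 4, 143 and 108). The cause of these differences was not tested. The median of the regulators and carrier, -0.22, was -0.29 with no replicate block and -0.33 to -0.17 without 1 replicate, and those of the sterol and fatty acid steps were -0.35 to -0.14 and -0.10 to -0.027 without 1 replicate. A stricter sterol element, with A before it and C at its open base, matched 0 members.

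Signs turned for members near 0. Acaca (-0.0018) was 0.0064 (edgeR, replicate block), 0.0065 (bias-adjusted form, and DESeq2 with TMM), 0.0084 (limma), 0.024 (no replicate block), 0.021 (line), 0.017 (old or new), 0.033 (total counts), 0.0037 (Lmyc3 summed), 0.032 (edgeR without block), and -0.070 to 0.046 without 1 replicate. Fads2 (0.023) was -0.0085 (no replicate block), -0.0091 (old or new), -0.024 (Lmyc3 summed), -0.0011 (edgeR without block) and -0.052 to 0.089 without 1 replicate (-0.016 without replicate 2). Hsd17b7 ranged from -0.13 to 0.029 and Insig2 from -0.00051 to 0.14 without 1 replicate. With 4 pairs from 3 lines, changes as large as some of those called may go undetected. In DESeq2 with the replicate block, Scd2 (-0.39) was not called, while Scap (-0.36), Sc5d (-0.35) and Sqle (-0.33) were.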

Other observations

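Genes that build and turn over glycerolipids, which take up fatty acids, were also examined. Among 20 tested genes of glycerolipid synthesis and turnover, Lpin2, a phosphatidate phosphatase, fell by 0.40 ± 0.12 (SE, DESeq2 adjusted p of 0.0264) and 0 rose, with a median over the list of 0.03. Over all genes tested, 2.2% fell and 1.86% rose. Lpin2 was lower with Nfib in all 4 pairs, its call held in 1 of 4 fits with a pair removed, and it was lost under total-count scaling (adjusted p of 0.0674).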
